A study of Mus musculus with 30 samples.

Results

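The genes described here belong to the unfolded protein response and to the folding machinery of the endoplasmic reticulum (ER). They were taken from a written list of 38 gene names, all 38 of which are among the 17775 genes of the deposited expression table. The list was split by role into 20 genes of folding and translocation, 8 genes of ER-associated degradation, and 10 genes of the stress sensors and the integrated stress response. Expression was measured by bulk RNA-seq in islet cells of the mouse pancreas sorted by fluorescence, 30 libraries in 5 groups, and the comparisons address how the loss of beta-cells, the factor Pdx1 and both together alter glucagon-producing alpha-cells. Alpha-cells of Glucagon-Venus mice aged 3 months gave 8 libraries (alpha). Glucagon-Venus; RIP-DTR mice, injected with diphtheria toxin at 2 months of age, gave 4 libraries of alpha-cells taken 30 days later (alpha DT). The RIP-DTR transgene makes insulin-producing cells sensitive to the toxin, so these mice differ from alpha in the transgene as well as in the toxin. Mice aged 3 months with Glucagon-rtTA, TetO-Cre, R26YFP and CAG-Pdx1 gave 5 libraries of alpha-cells that express Pdx1 from the CAG promoter, with the Cre directed to glucagon-expressing cells (alpha Pdx1). The same 4 transgenes with RIP-DTR, and the toxin on the same schedule, gave 6 libraries (alpha Pdx1 DT). Insulin-mCherry mice aged 3 months gave 7 libraries of beta-cells (beta). The labels do not say whether each library comes from its own animal, so p-values measure the spread between these samples, which may be technical.

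Secretory cells fold their hormones in the ER with chaperones, among them the HSP70-type protein BiP encoded by Hspa5, and with oxidoreductases that form disulfide bonds. Chains that fail to fold are returned to the cytosol and degraded by a complex around Sel1l and the ubiquitin ligase Syvn1. When unfolded protein accumulates, the sensors encoded by Ern1 (IRE1), Atf6 and Eif2ak3 (PERK) respond. IRE1 splices the Xbp1 mRNA, ATF6 is cleaved to an active factor, and PERK phosphorylates eIF2-alpha, which favours translation of Atf4 and its stress targets such as Ddit3 (CHOP), Trib3, Chac1 and Asns. Insulin-producing beta-cells are known for a high load of this machinery. Splicing, cleavage and phosphorylation are not measured by the values used here, which are mRNA levels.

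A known regulatory sequence of ER chaperone genes is the ER stress response element, bound by NF-Y and by ATF6 or XBP1. Its letters, CCAAT and CCACG separated by any 9 bases, were searched on both strands of the 250 bases before the start that the RefSeq promoter table (GRCm38.p6) gives for each gene. In 5 genes, Dnajc10, Ero1lb, Edem1, Derl2 and Eif2ak3, that start is not the outer end of the RefSeq gene, and the window overlaps the gene's span. The table holds windows for 34 of the 38 genes, and 10 of these (29.4%) have the letters. Among all 32851 windows of the same length 37 have them (0.113%). None of the 9 sensor and stress-response genes with a window has the letters. The letters are in 8 of 18 folding and 2 of 7 degradation genes with a window, so most genes of both roles lack them there. The matches are printed to show the element in the genes that have it, 5′ to 3′ in the direction of the element, with the element in capitals and 10 flanking bases on each side.
Hspa5 (chr2:34772015-34772053, plus strand): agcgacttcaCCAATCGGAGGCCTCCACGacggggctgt
Hsp90b1 (chr10:86705628-86705666, minus strand): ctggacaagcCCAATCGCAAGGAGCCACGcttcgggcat
Hsp90b1 (chr10:86705523-86705561, plus strand): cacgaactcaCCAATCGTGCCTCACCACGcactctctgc
Pdia6 (chr12:17266481-17266519, plus strand): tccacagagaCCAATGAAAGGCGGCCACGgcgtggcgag
Calr (chr8:84847065-84847103, plus strand): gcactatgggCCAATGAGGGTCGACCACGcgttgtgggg
Canx (chr11:50325790-50325828, minus strand): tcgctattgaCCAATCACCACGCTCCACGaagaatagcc
Dnajc3 (chr14:118937817-118937855, plus strand): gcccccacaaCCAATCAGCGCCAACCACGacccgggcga
Creld2 (chr15:88819510-88819548, minus strand): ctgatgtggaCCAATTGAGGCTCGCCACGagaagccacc
Ero1lb (chr13:12565672-12565710, minus strand): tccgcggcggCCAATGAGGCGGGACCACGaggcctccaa
Syvn1 (chr19:6046522-6046560, plus strand): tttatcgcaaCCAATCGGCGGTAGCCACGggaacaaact
Derl3 (chr10:75893232-75893270, minus strand): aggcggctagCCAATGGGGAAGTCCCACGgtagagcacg
None of these 11 stretches overlaps the RefSeq span of its gene, and with their flanks they lie between 222 and 16 bases before the start in the promoter table. Around the Hspa5 element, which lies 65 to 47 bases before the start, the promoter from 150 to 31 bases before the start (chr2:34771940-34772059, plus strand) is printed as an example of the setting of an element.
Hspa5 promoter: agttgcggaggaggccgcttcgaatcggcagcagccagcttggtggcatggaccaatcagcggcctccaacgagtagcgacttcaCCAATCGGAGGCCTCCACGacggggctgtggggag

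Other motifs were found in fewer of the genes. The related element II, searched as ATTGG and CCACG with any 1 base between them, was found in 1 gene of the set, Herpud1, and in 0.0304% of all windows. The composite element of ATF4 and C/EBP factors, searched as TGATGNAA, was found in 3 genes, Asns, Chac1 and Herpud1, and in 3.45% of all windows. The UPR element, searched as TGACGTGG, was in none of the 34 genes with a window and in 0.563% of all windows. The matches of the composite element and of element II are shown because Asns and Chac1 are known ATF4 targets and because Herpud1 has letters of both kinds.
Herpud1, element II (chr8:94386367-94386397, plus strand): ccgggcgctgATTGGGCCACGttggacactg
Herpud1, composite element (chr8:94386307-94386334, minus strand): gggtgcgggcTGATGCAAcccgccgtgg
Chac1 (chr2:119351039-119351066, minus strand): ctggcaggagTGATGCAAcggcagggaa
Asns (chr6:7693215-7693242, minus strand): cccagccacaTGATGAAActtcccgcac
A match of letters is a description of the window and not a measured binding site.

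The values are on a log2 scale and all 30 libraries have the same highest value and quartiles that agree within 0.027 (5.95, 8.55 and 10.37), as after quantile normalization, so a difference is one of position within the library's own distribution. Whether they are scaled by transcript length is not given in the sources used here, so levels are compared between libraries and not between genes. Read numbers are not in the table. As a rough guide to depth, the count of different values a library holds below the first quartile ran from 32 (the library labelled alpha Pdx1 DT 6) to 111 (alpha 8). Pdx1, the transgene of the Pdx1 groups, was 3.66 to 11.23 in alpha, 3.71 to 6.70 in alpha DT, 8.61 to 11.83 in alpha Pdx1, 5.51 to 12.59 in alpha Pdx1 DT and 10.45 to 11.77 in beta. The highest alpha value belongs to the library labelled alpha 8 and the lowest alpha Pdx1 DT value to the library labelled alpha Pdx1 DT 5, so both go against their labels. The lowest alpha Pdx1 value belongs to alpha Pdx1 5, and Gcg was the most abundant gene in beta 1 and beta 5, at the table's highest value (22.565). Of 6 alpha-cell markers all 6 were lower in beta than in alpha, and of 6 beta-cell markers all 6 were higher. Of other markers, 1 of 3 delta-cell genes, the PP-cell gene Ppy, 1 of 4 ductal and 3 of 4 mesenchymal genes were lower in beta and 1 ductal gene was higher, while the 1 endothelial, 1 plasma-cell, 7 leukocyte and 14 acinar genes tested did not pass. Alpha Pdx1 DT 5 and alpha 4 had the highest correlation over genes of all 435 pairs (0.993), although their labels differ. Counts are therefore given for all 30 libraries and again with 5 of them left out (beta 1, beta 5, alpha 8, alpha Pdx1 5 and alpha Pdx1 DT 5), which were doubted from their Pdx1 and Gcg levels after these were known.

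The ER genes were higher in beta-cells than in alpha-cells in each of the 3 roles. Of the 38 genes, 30 rose in beta, 1 fell and 7 did not pass the test (limma over 16633 genes, adjusted p under 0.05). Over all genes tested 16.9% were higher and 17.6% lower in beta, 34.5% in either direction. The median log2 difference of the 38 genes was 1.14, against -0.0015 over all genes. In 22 of the 38 genes every beta library was above every alpha library, which 8.11% of all genes did. Without the 5 doubted libraries 30 genes passed, 29 higher and 1 lower, where 31.8% of all genes passed. In beta, 30 of the 38 genes had their lowest value in beta 1 or beta 5, the libraries with the most Gcg. Beta 1 and beta 5 also had the highest acinar, leukocyte and macrophage, ductal, delta-cell and mesenchymal list means of the group. The same held for the plasma-cell gene Igj and for Ppy. All 7 leukocyte and macrophage genes had positive differences against alpha (median 1.86) and none passed. Of the 14 acinar genes 6 had positive differences and none passed. The part of other cells in the member differences was not tested. In sorted bulk RNA fewer cells of a type and less RNA per cell cannot be told apart. The mouse line and its reporter differ between alpha and beta along with the cell type, and cannot be told apart from it.

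**Figure D1:**
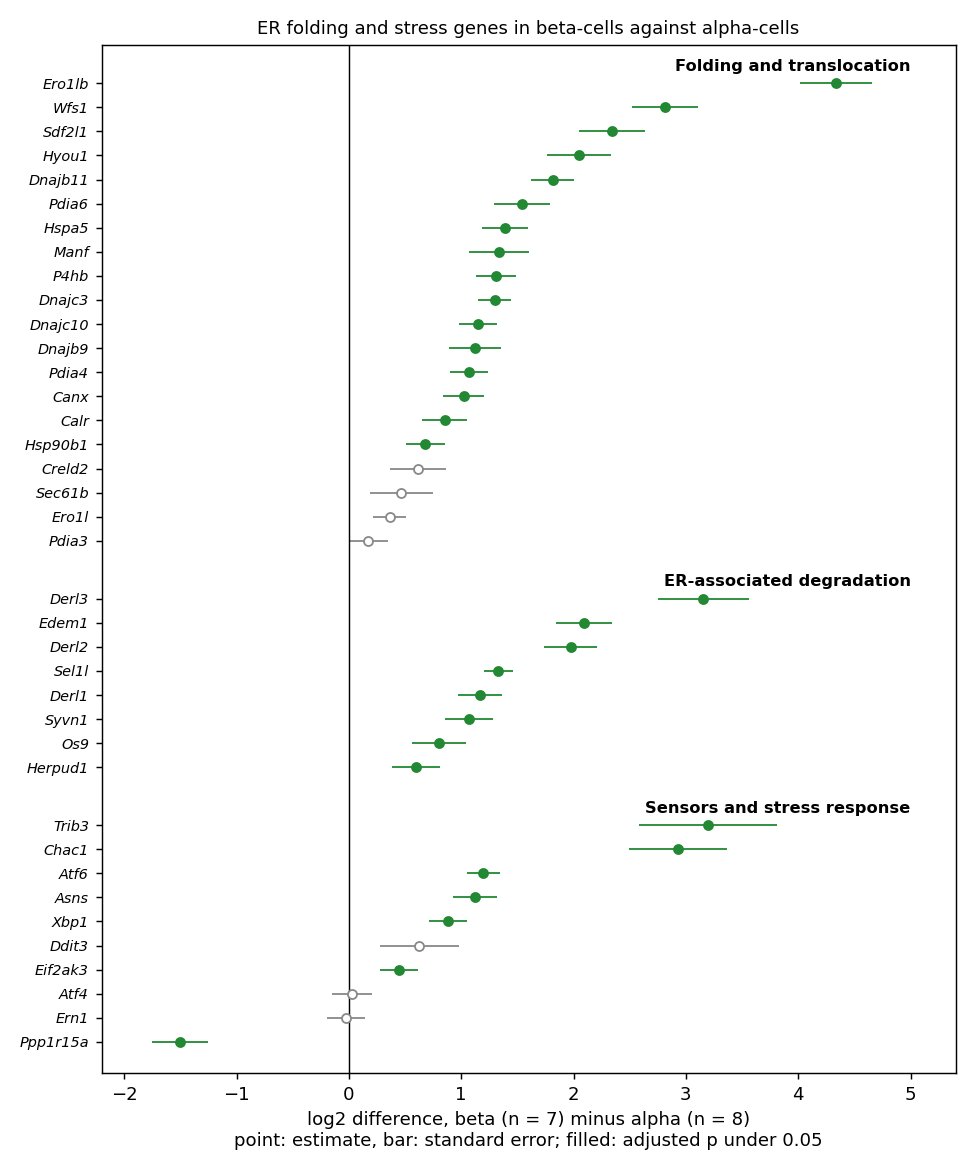
Log2 difference between beta (7 libraries) and alpha (8 libraries) for each of the 38 genes, ordered within role. Points are estimates, bars are standard errors and filled points have an adjusted p under 0.05; Ero1lb lies farthest to the right (4.34 ± 0.32) and Ppp1r15a is the filled point left of 0.

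In the folding role 16 of 20 genes rose in beta and none fell, with a median difference of 1.22. Ero1lb, the oxidase that recycles protein disulfide isomerase and is known for its high level in pancreatic endocrine cells, ranged from 11.96 to 14.09 (median 12.68) in alpha and from 15.57 to 17.92 (median 17.68) in beta. Its log2 difference of 4.34 ± 0.32, adjusted p = 1e-11 (± standard error of the fit, as throughout) is the largest of the set, and the groups do not overlap. The related oxidase gene Ero1l ranged from 11.36 to 11.88 (median 11.64) in alpha and from 11.83 to 12.15 (median 11.99) in beta. Its difference of 0.36 ± 0.15, adjusted p = 0.051 did not pass, and the groups overlap. Wfs1, an ER membrane protein whose loss causes Wolfram syndrome with diabetes, ranged from 9.52 to 11.48 (median 10.10) in alpha and from 12.35 to 13.38 (median 13.10) in beta (2.81 ± 0.29, adjusted p = 4.9e-09). Its highest alpha value belongs to alpha 8, the library with Pdx1 at beta level, and is still below every beta value. Sdf2l1, an ER-resident protein of the BiP cycle, ranged from 7.60 to 9.83 (median 9.09) in alpha and from 10.62 to 11.91 (median 11.28) in beta (2.34 ± 0.29, adjusted p = 1.03e-07). Hyou1, a large HSP70-type chaperone and exchange factor of BiP, ranged from 11.36 to 13.10 (median 12.74) in alpha and from 14.04 to 15.30 (median 14.76) in beta (2.05 ± 0.29, adjusted p = 1.03e-06). The lowest alpha value of Sdf2l1 and of Hyou1 belongs to alpha 1, and in both genes all beta libraries lie above all alpha libraries.

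Hspa5 itself (RefSeq, GRCm38.p6, chr2:34772090-34776529), the master chaperone of the ER and the inhibitor of the stress sensors, ranged from 14.21 to 15.27 (median 14.83) in alpha and from 15.34 to 16.98 (median 16.37) in beta. The difference of 1.39 ± 0.21, adjusted p = 2.35e-06 came without overlap, though beta 1 (15.34) lies close to the highest alpha library (15.27). The J-domain partners of BiP rose as well. Dnajb11 was at 1.82 ± 0.19, Dnajc3 at 1.30 ± 0.15, Dnajc10 at 1.15 ± 0.17 and Dnajb9 at 1.12 ± 0.23. Dnajb9 was the one of these 4 whose groups overlapped, with 11.45 to 12.52 in alpha and 12.35 to 13.78 in beta. The genes of disulfide isomerases did not all pass. Pdia6 (1.54 ± 0.25), P4hb (1.31 ± 0.18) and Pdia4 (1.07 ± 0.17) rose, whereas Pdia3, the isomerase that works with the lectin chaperones on glycoproteins, was at 0.17 ± 0.17, adjusted p = 0.463. The lectin chaperones Canx (1.02 ± 0.18) and Calr (0.85 ± 0.20) rose, as did the secreted stress factor gene Manf (1.34 ± 0.27) and Hsp90b1, the ER form of HSP90 (0.68 ± 0.17). Creld2, a stress-induced ER protein, was at 0.62 ± 0.25, adjusted p = 0.0574, and rose without the 5 doubted libraries (0.77, adjusted p = 0.0424). The translocon subunit gene Sec61b was at 0.47 ± 0.28, adjusted p = 0.2.

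All 8 degradation genes rose in beta, with a median difference of 1.25. Derl3 (chr10:75893398-75895941), a derlin of the retrotranslocation step, ranged from 3.77 to 6.24 (median 5.05) in alpha and from 7.67 to 8.99 (median 8.08) in beta (3.15 ± 0.40, adjusted p = 1.46e-07). Edem1, a lectin-like protein that marks misfolded glycoproteins for removal, ranged from 9.31 to 10.31 (median 9.73) in alpha and from 11.50 to 12.18 (median 11.87) in beta (2.09 ± 0.25, adjusted p = 4.56e-08). Derl2, another derlin, ranged from 9.57 to 10.72 (median 9.80) in alpha and from 11.20 to 12.26 (median 11.98) in beta (1.98 ± 0.24, adjusted p = 4.29e-08). In each of these 3 genes the lowest beta library lies above the highest alpha library. Sel1l, the scaffold of the ubiquitin ligase complex, ranged from 11.21 to 11.82 (median 11.43) in alpha and from 12.46 to 12.98 (median 12.85) in beta. Its difference of 1.33 ± 0.13, adjusted p = 5.12e-10 is smaller than that of Derl3, but its adjusted p is the lowest of the role. The ligase gene Syvn1 was at 1.07 ± 0.21, Derl1 at 1.17 ± 0.19 and the lectin gene Os9 at 0.80 ± 0.24. Herpud1, which organises the ligase complex, had the smallest rise (0.60 ± 0.21, adjusted p = 0.0276), and did not pass without the 5 doubted libraries (0.52, adjusted p = 0.119) or without alpha 3, alpha 4, alpha 8 or beta 3 (highest adjusted p over all alternatives 0.119).

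Among the sensors and stress-response genes 6 of 10 rose, 1 fell and 3 did not pass, with a median difference of 0.76. Of the sensors, Atf6 ranged from 11.69 to 12.59 (median 12.18) in alpha and from 12.97 to 13.66 (median 13.43) in beta (1.20 ± 0.15, adjusted p = 5.8e-08). Eif2ak3 ranged from 9.96 to 10.89 (median 10.24) in alpha and from 10.38 to 11.02 (median 10.81) in beta (0.45 ± 0.17, adjusted p = 0.0364). Ern1 ranged from 11.30 to 12.35 (median 11.74) in alpha and from 11.53 to 11.93 (median 11.76) in beta (-0.03 ± 0.17, adjusted p = 0.924). Atf6 thus did not overlap between the groups, while Eif2ak3 and Ern1 did. The call of Eif2ak3 was lost without the 5 doubted libraries (0.49, adjusted p = 0.0581) and without any one of alpha 3, 4, 6, 7 or 8 or beta 2, 3, 6 or 7 (highest adjusted p 0.0816). Xbp1, the factor made by IRE1 splicing, ranged from 12.14 to 12.91 (median 12.46) in alpha and from 13.14 to 13.66 (median 13.44) in beta (0.88 ± 0.17, adjusted p = 9.65e-05), without overlap.

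Atf4, the factor that PERK favours, ranged from 11.98 to 13.02 (median 12.38) in alpha and from 12.21 to 12.84 (median 12.50) in beta (0.03 ± 0.18, adjusted p = 0.93). Ddit3, the proapoptotic factor CHOP, ranged from 7.92 to 9.39 (median 8.33) in alpha and from 8.45 to 9.73 (median 8.97) in beta (0.63 ± 0.35, adjusted p = 0.175). Neither passed the test, and both overlap between the groups. The members Chac1, Asns and Trib3, known ATF4 targets like Ddit3, were called higher in beta. Chac1, a glutathione-degrading enzyme, ranged from 3.68 to 6.10 (median 5.34) in alpha and from 7.60 to 8.82 (median 8.13) in beta (2.93 ± 0.43, adjusted p = 2.02e-06). Asns, the asparagine synthetase, ranged from 10.14 to 10.93 (median 10.41) in alpha and from 11.06 to 11.98 (median 11.58) in beta (1.12 ± 0.19, adjusted p = 2.17e-05). The pseudokinase gene Trib3 ranged from 0.76 to 3.56 (median 1.99) in alpha and from 3.78 to 6.46 (median 5.30) in beta (3.20 ± 0.62, adjusted p = 0.000109). Trib3 passed the filter on low values only through beta, so it had to differ. Without it 29 of the other 37 members rose and 1 fell (median difference 1.12), and 21 had no overlap upwards. The alpha values of Trib3 lie near the lowest value of the table, where the difference is poorly defined. Ppp1r15a (GADD34), the phosphatase subunit that reverses eIF2-alpha phosphorylation, was the exception in direction. It ranged from 10.37 to 12.02 (median 10.89) in alpha and from 9.10 to 9.97 (median 9.36) in beta (-1.50 ± 0.25, adjusted p = 1.35e-05), so every beta library was below every alpha library, as in 6.42% of all genes. Ppp1r15a is also an immediate early stress gene, and the dissociation-response list of 9 genes, Fos, Fosb, Jun, Junb, Egr1, Ier2, Dusp1, Nr4a1 and Atf3, moved with it. All 9 fell in beta, with list means of 12.18 to 13.46 in alpha and 8.43 to 11.03 in beta. The part of that response in the differences of Ppp1r15a and of the other members was not tested.

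**Figure D2:**
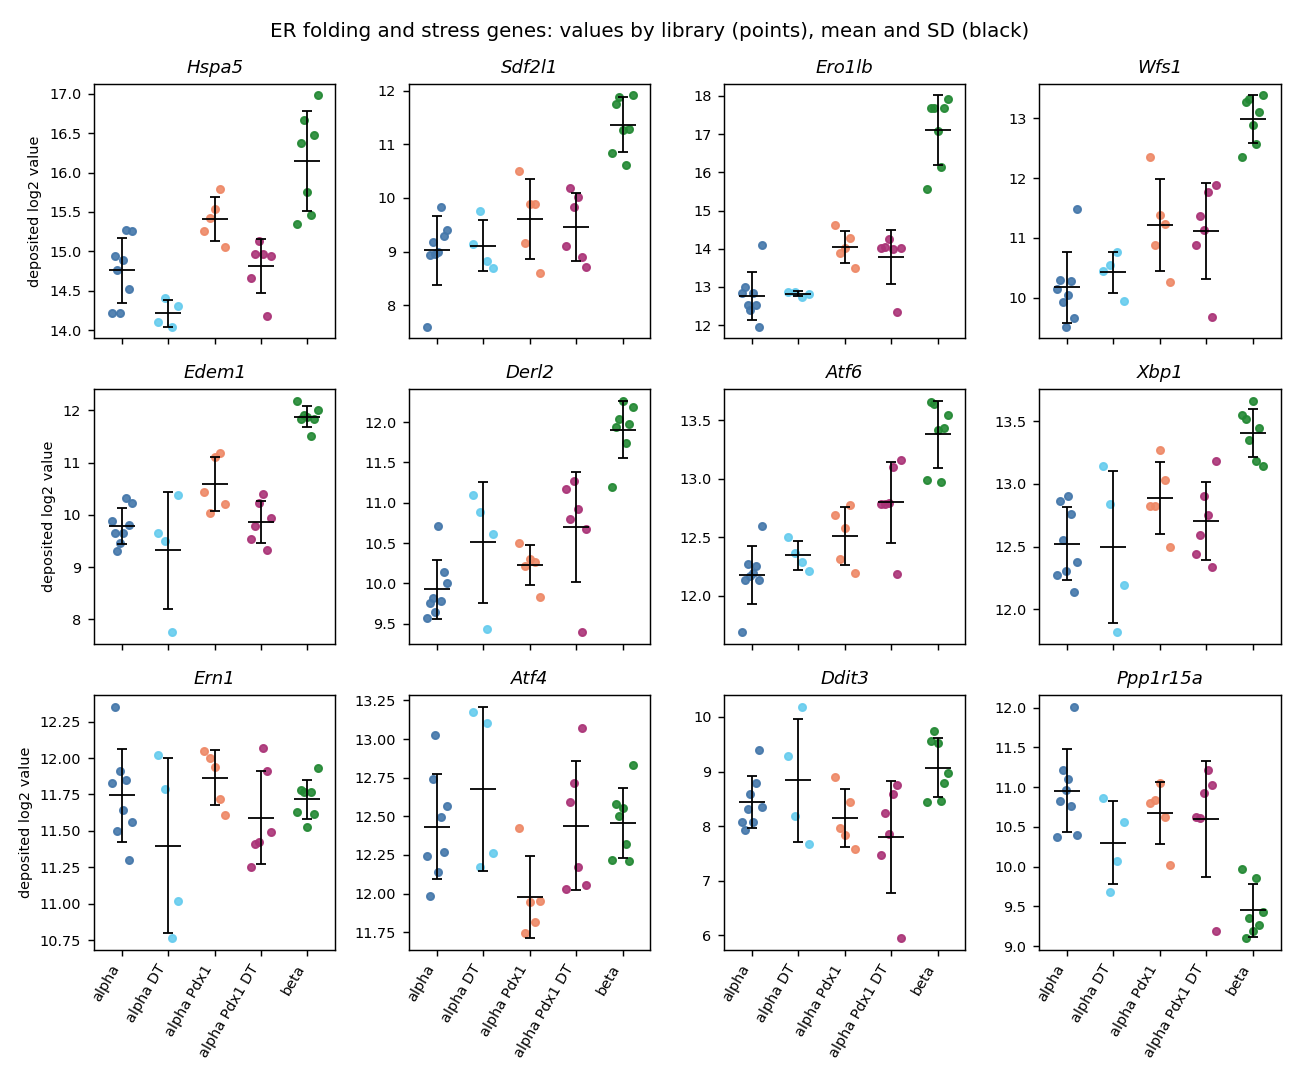
Deposited log2 values of 12 genes in each library, by group (alpha 8, alpha DT 4, alpha Pdx1 5, alpha Pdx1 DT 6 and beta 7 libraries), with the mean and SD in black. Each panel has its own axis, which does not start at 0; beta lies highest in the first 8 panels and lowest in that of Ppp1r15a.

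Genes of neighbouring steps, from lists that do not include the 38, were also counted. Of 25 genes of translocation and signal peptide cleavage 18 rose in beta and 1 fell (median 0.72), with the signal peptidase subunit gene Spcs3 at 1.64 ± 0.19, the signal recognition particle receptor gene Srpr at 1.28 ± 0.16 and Tram2 at -1.17 ± 0.37. Of 20 genes of N-glycosylation and the glycoprotein folding cycle 14 rose and 1 fell (median 0.82), with Uggt1, the glucosyltransferase that senses misfolded glycoproteins, at 1.83 ± 0.15 and its paralog Uggt2 at -0.75 ± 0.18. Of 22 genes of ER exit vesicles and cargo receptors 13 rose and 2 fell, among them the cargo receptor gene Lman1 (1.88 ± 0.19) and the retrieval receptor gene Kdelr3 (-1.07 ± 0.27). Of 23 other degradation genes 11 rose and none fell, with Edem3 at 1.34 ± 0.17 and Edem2 at 1.32 ± 0.20. Of 25 other folding genes 9 rose and 2 fell, Prdx4, an ER peroxiredoxin (-2.22 ± 0.32), and the prolyl isomerase gene Fkbp7 (-1.81 ± 0.35). Of 19 other sensors and regulators 6 rose and 2 fell, with Creb3l1, an ER-anchored factor of the ATF6 type, at 4.33 ± 0.39 and the amino acid sensor kinase gene Eif2ak4 at -0.73 ± 0.16. Of 29 other known ATF4 targets 13 rose and 2 fell, with the stress factor gene Atf5 at 4.62 ± 0.44 and Stc2 at -2.51 ± 0.78. The shares called run from 42.1% to 76%, beside 34.5% of all genes. Whether any gene of these lists passed the filter only through beta, like Trib3, was not checked.

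Pdx1 in alpha-cells without the toxin came with higher levels of a few folding genes. In alpha Pdx1 (n = 5) against alpha (n = 8) 3 of the 38 genes rose and none fell, all 3 in the folding role, where 2.36% of all genes were higher and 4.33% passed in either direction. The difference was positive for 32 of the 38 and for 8820 of 16633 genes over all, with medians of 0.37 and 0.03. An unadjusted p under 0.05 was found for 13 of the 38 and for 2914 of the 16633. Dnajb9 (chr12:44205897-44210068), the J-domain protein ERdj4 that restrains IRE1 and serves degradation, had 13.37, 12.95, 13.48, 13.60 and 13.24 in the alpha Pdx1 libraries. In alpha it ranged from 11.45 to 12.52 (median 12.33). Every alpha Pdx1 library lay above every alpha library, as in 0.649% of all genes, while none of the 38 lay wholly below (0.559% of all genes, and 1.98% of all genes were called lower), and the difference was 1.21 ± 0.25, adjusted p = 0.00604. Dnajc3 (p58IPK), a J-domain cochaperone and inhibitor of PERK, had 13.51, 13.42, 13.28, 13.80 and 13.37 in alpha Pdx1 and ranged from 12.62 to 13.35 (median 12.87) in alpha (0.59 ± 0.16, adjusted p = 0.0306). Ero1lb had 14.61, 13.90, 14.01, 14.28 and 13.49 in alpha Pdx1 (1.29 ± 0.35, adjusted p = 0.0313). The alpha range of Dnajc3 and of Ero1lb reaches into the alpha Pdx1 range only through alpha 8. Dnajb9 passed in all 13 fits without 1 library. Dnajc3 lost its call without alpha 3, 4 or 7 or alpha Pdx1 2 or 4, and Ero1lb without alpha 3, 4, 6 or 7 or alpha Pdx1 1, 2, 3 or 4 (highest adjusted p 0.135 and 0.0966). The count was 1 without any one of alpha 3, 4 or 7 or alpha Pdx1 2 or 4, and 5 without alpha 8. Over all alternatives 1.81% to 18.7% of all genes passed. With library weights 11 passed, 10 higher and 1 lower, where 18.7% of all genes did.

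Without the 5 doubted libraries 7 of the 38 genes rose in alpha Pdx1 and none fell, where 6.61% of all genes passed. The 4 added were Wfs1 (1.47, adjusted p = 5.46e-05), Hspa5 (0.81, adjusted p = 0.00773), Pdia3 (0.63, adjusted p = 0.0416) and Atf6 (0.47, adjusted p = 0.0438). With all libraries Hspa5 had 15.25, 15.43, 15.54, 15.79 and 15.05 in alpha Pdx1, a difference of 0.65 ± 0.23, adjusted p = 0.103, and Wfs1 had 12.35, 10.88, 11.38, 11.23 and 10.26 (1.05 ± 0.32, adjusted p = 0.06). The lowest Wfs1 value belongs to alpha Pdx1 5, the library of that group with the least Pdx1. None of the 8 degradation genes and none of the 10 sensors and stress genes passed with all libraries. Edem1 was at 0.80 ± 0.28, adjusted p = 0.0955, Xbp1 at 0.37 ± 0.19, adjusted p = 0.306, Atf4 at -0.46 ± 0.20, adjusted p = 0.205 and Ddit3 at -0.29 ± 0.39, adjusted p = 0.763. The sensor genes were at 0.33 ± 0.16 for Atf6, 0.12 ± 0.18 for Ern1 and 0.28 ± 0.18 for Eif2ak3 (adjusted p = 0.282, 0.794 and 0.463). Of 14 acinar-cell marker genes none passed, but their list means were 4.06 to 10.87 in alpha Pdx1 and 6.31 to 12.67 in alpha. The ribosomal RNA gene Rn18s-rs5 was 16.90 to 18.27 in alpha Pdx1 and 17.68 to 20.54 in alpha. Of the dissociation-response genes 1 of 9 was called lower in alpha Pdx1 (12.14 to 12.48 against 12.18 to 13.46), and none of the 7 leukocyte genes passed (4.02 to 5.70 against 4.24 to 7.75). The part of these marker levels in the member differences was not tested. Glucagon-rtTA, TetO-Cre and the reporter transgene differ between the groups along with Pdx1, and their effects cannot be told apart. Of the neighbouring lists, Alg2, a mannosyltransferase gene of N-glycosylation, rose (0.69 ± 0.19, adjusted p = 0.0263), and so did the ATF4 target gene Vldlr (2.21 ± 0.46, adjusted p = 0.00604). No other gene of these 7 lists passed.

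In alpha-cells 30 days after the toxin, 3 of the 38 genes passed. Chac1 and Derl3 rose in alpha DT (n = 4) against alpha (n = 8) and Pdia3 fell, where 3.26% of all genes passed, 1.57% higher and 1.7% lower. In none of the 38 were the groups free of overlap, which was so for 0.95% of all genes upwards and 1.12% downwards. The median difference of the 38 was -0.03, against -0.06 over all genes. Chac1 (chr2:119351242-119354326) had 7.93, 7.16, 8.98 and 6.08 in alpha DT and ranged from 3.68 to 6.10 (median 5.34) in alpha (2.34 ± 0.51, adjusted p = 0.0104). Derl3 had 6.87, 8.08, 7.06 and 6.19 in alpha DT and ranged from 3.77 to 6.24 (median 5.05) in alpha (1.97 ± 0.48, adjusted p = 0.0196). In both genes the lowest alpha DT value, that of alpha DT 4, lies just below the highest alpha value. Pdia3 had 13.54, 14.43, 14.73 and 14.05 in alpha DT and ranged from 14.43 to 15.57 (median 14.97) in alpha (-0.73 ± 0.20, adjusted p = 0.04), with overlap. Chac1 passed in all 12 fits without 1 library and Derl3 in 11, all but that without alpha DT 2. Pdia3 passed in 4 of 12, lost its call without alpha 2, 3, 4, 6 or 8 or alpha DT 1, 2 or 4, and had -0.64, adjusted p = 0.0577 without the 5 doubted libraries. A fit of these 12 libraries alone called none of the 38. The count was 1 without alpha DT 2, and Chac1 was then the gene that passed. Over all alternatives 0.397% to 6.48% of all genes passed.

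None of the other 9 sensor and stress genes passed. Atf4 had 13.17, 12.17, 13.10 and 12.26 in alpha DT (0.24 ± 0.21, adjusted p = 0.551), Ddit3 had 9.29, 8.19, 10.19 and 7.67 (0.40 ± 0.42, adjusted p = 0.636) and Asns was at 0.01 ± 0.23, adjusted p = 0.987. In Chac1, Ddit3 and Asns the highest alpha DT library was alpha DT 3, and in each the lowest was alpha DT 4. The master chaperone gene Hspa5 had 14.11, 14.41, 14.04 and 14.31, of which the lowest and the next lowest lie below every alpha library (-0.54 ± 0.25, adjusted p = 0.206). Ern1 was at -0.35 ± 0.20, adjusted p = 0.333, Xbp1 at -0.02 ± 0.20, adjusted p = 0.962, Atf6 at 0.16 ± 0.17, adjusted p = 0.636 and Eif2ak3 at -0.32 ± 0.20, adjusted p = 0.376. Among other known ATF4 targets 2 of 29 rose and none fell, the amino-acid transporter gene Slc38a2 (1.20 ± 0.22, adjusted p = 0.00265) and the factor gene Cebpg (0.77 ± 0.18, adjusted p = 0.0172). None of the genes in the other 6 neighbouring lists passed in limma. An unadjusted p under 0.05 was found for 1 of 25 translocation, 3 of 20 N-glycosylation and 5 of 22 ER exit genes. The same held for 6 of 23 other degradation genes, 7 of 25 other folding genes and 3 of 19 other sensors and regulators. Over all genes 3335 of 16633 had one. Markers of other cells moved in the same comparison. Of 7 leukocyte and macrophage genes 3 rose, with list means of 7.59 to 11.58 in alpha DT and 4.24 to 7.75 in alpha. The acinar list, of which none passed, had means of 7.89 to 13.84 and 6.31 to 12.67. The plasma-cell gene Igj, the one measured marker of that list, was 4.69 to 8.33 in alpha DT and 2.93 to 8.58 in alpha. The PP-cell gene Ppy was 17.92 to 18.63 against 14.97 to 17.92, and the 1 endothelial gene 5.02 to 6.35 against 0.76 to 5.52. The delta-cell list had means of 11.39 to 13.63 against 10.81 to 12.11. Lower was the mesenchymal list (6.16 to 7.63 against 6.21 to 9.38). None of the genes in these last 4 lists was called. Chac1 was highest in alpha DT 3, which had the lowest acinar list mean of the group (7.89), whereas Derl3 was highest in alpha DT 2, which had the highest (13.84). The part of other cells in the Derl3 and Chac1 differences was not tested, and the toxin and the RIP-DTR transgene cannot be told apart.

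**Figure D3:**
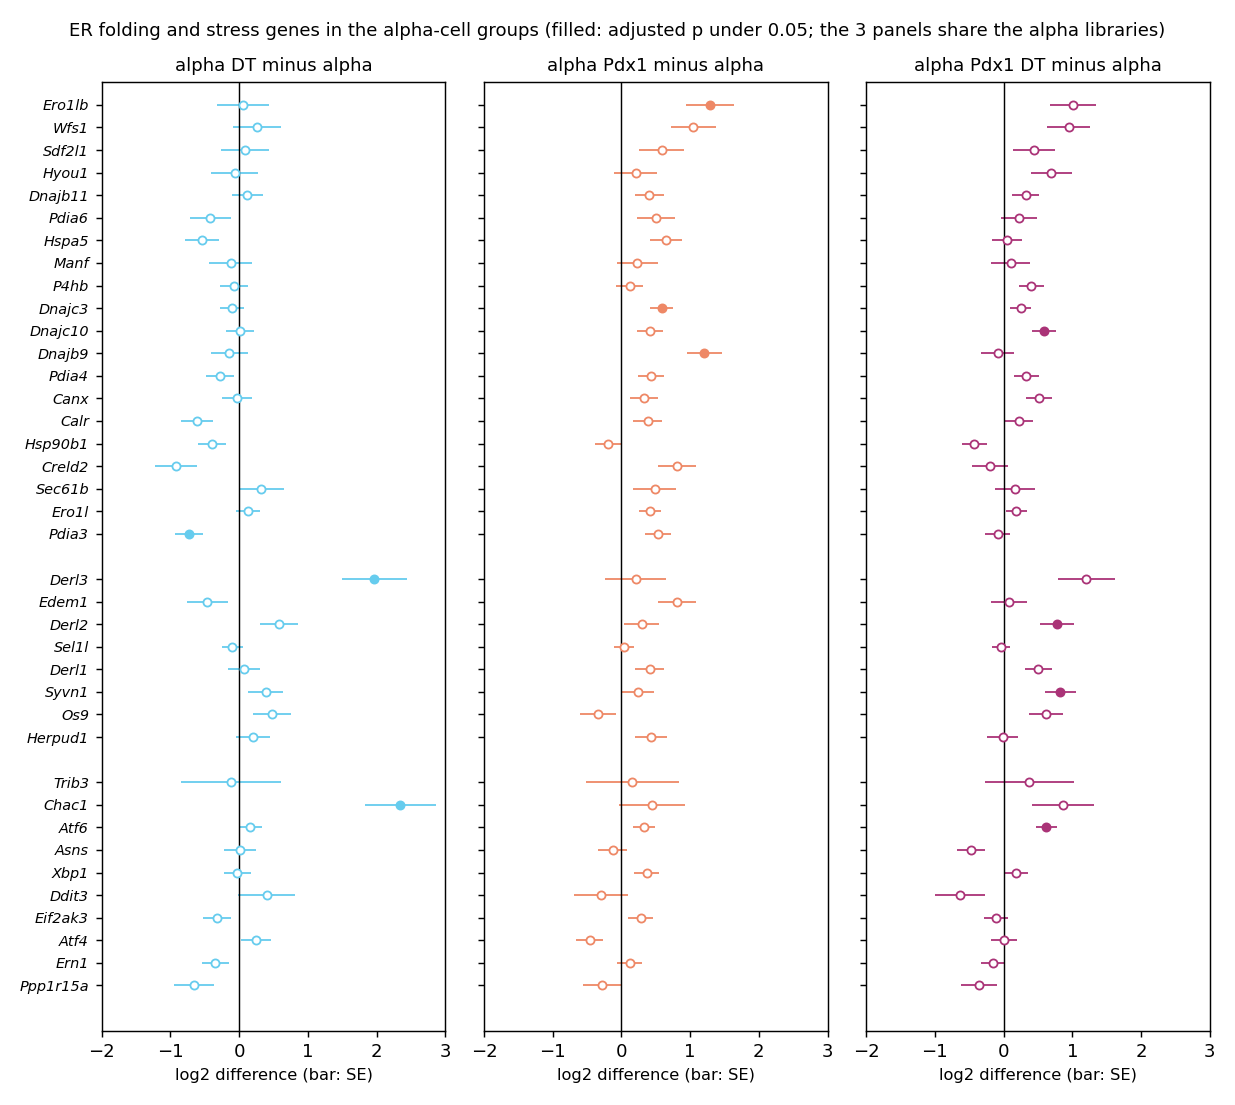
Log2 differences of the 38 genes from alpha in alpha DT, alpha Pdx1 and alpha Pdx1 DT, in the same order in each panel, with standard errors. Filled points have an adjusted p under 0.05, 3, 3 and 4 in the panels from left to right; the panels share the 8 alpha libraries, so they are not independent.

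In Pdx1-expressing cells after the toxin, the share of the 38 genes that passed against Pdx1 alone was near that of all genes. In alpha Pdx1 DT (n = 6) against alpha Pdx1 (n = 5) Dnajb9, Creld2 and Pdia3 fell and Os9 rose, 4 of 38 genes (10.5%). Of all genes 9.22% passed (4.39% lower and 4.83% higher). The RIP-DTR transgene differs between these groups along with the toxin, and the 2 cannot be told apart. Dnajb9 ranged from 11.24 to 12.89 (median 11.97) in alpha Pdx1 DT, below the lowest alpha Pdx1 library (12.95), a difference of -1.29 ± 0.27, adjusted p = 0.00599. Against alpha it was at -0.09 ± 0.24, adjusted p = 0.85. Creld2 had 12.25, 11.36, 11.43, 11.61 and 11.21 in alpha Pdx1 and ranged from 9.88 to 11.13 (median 10.54) in alpha Pdx1 DT (-1.01 ± 0.30, adjusted p = 0.0296). For both genes all 6 alpha Pdx1 DT libraries lay below all 5 alpha Pdx1 libraries, as in 2.53% of all genes. None of the 38 lay wholly above (2.03% of all genes). Pdia3 had 15.16, 15.49, 15.46, 15.69 and 15.46 in alpha Pdx1 and ranged from 14.52 to 15.16 (median 14.90) in alpha Pdx1 DT (-0.62 ± 0.20, adjusted p = 0.045). The degradation lectin gene Os9 had 11.43, 10.67, 10.91, 10.59 and 10.29 in alpha Pdx1 and ranged from 11.32 to 12.23 (median 11.69) in alpha Pdx1 DT (0.96 ± 0.28, adjusted p = 0.0288), with overlap. Dnajb9 passed in all 11 fits without 1 library, Creld2 and Os9 in 6 and Pdia3 in 3. The count was 1 without alpha Pdx1 DT 1 or alpha Pdx1 2 or 4, and 2 without alpha Pdx1 DT 2 or 4 or alpha Pdx1 5. It was 6 without alpha Pdx1 DT 5, and 7 with library weights, where 22.7% of all genes passed. Over all alternatives 3.38% to 22.7% of all genes passed. Hspa5 was at -0.60 ± 0.24, adjusted p = 0.107 and Xbp1 at -0.19 ± 0.20, adjusted p = 0.576. The sensor genes Atf6 (0.29 ± 0.17), Ern1 (-0.27 ± 0.20) and Eif2ak3 (-0.40 ± 0.20) did not pass, nor did Atf4 (0.46 ± 0.21) or Ddit3 (-0.34 ± 0.42). Without the 5 doubted libraries the 3 falls passed and Os9 did not (0.92, adjusted p = 0.0632). Rn18s-rs5 was 19.87 to 22.565 in alpha Pdx1 DT and 16.90 to 18.27 in alpha Pdx1, and the acinar list means were 5.95 to 13.88 and 4.06 to 10.87. All 7 leukocyte and macrophage genes had positive differences and 1 was called (list means 4.56 to 10.11 against 4.02 to 5.70). Of the 9 dissociation-response genes 1 was called higher (12.17 to 13.45 against 12.14 to 12.48). The part of these levels in the differences was not tested.

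**Figure D4:**
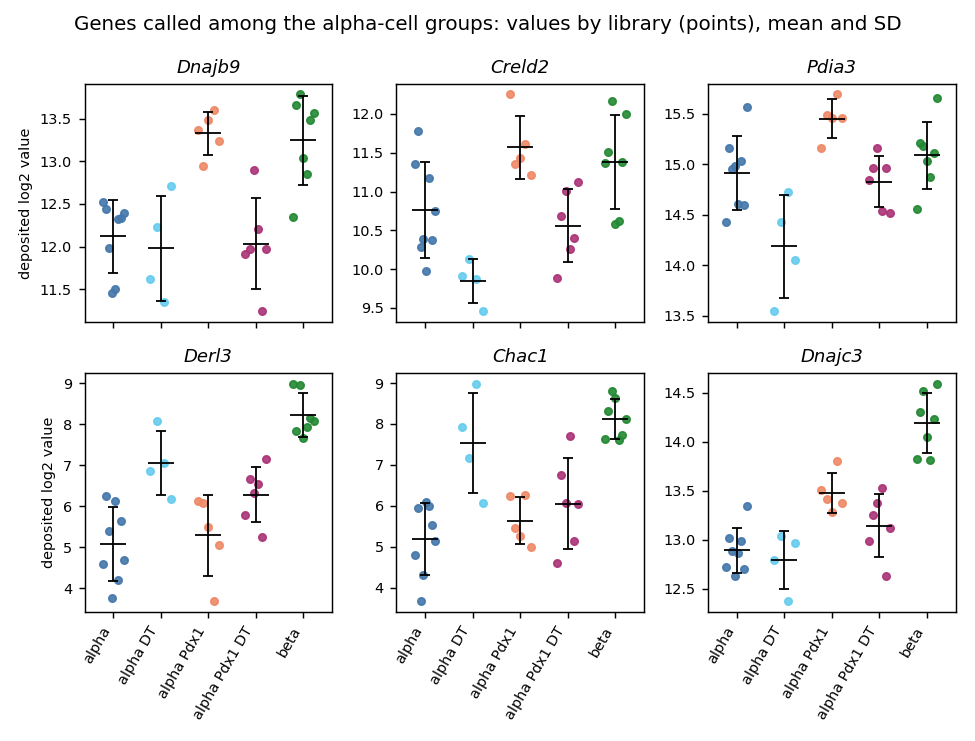
Deposited log2 values of 6 genes called among the alpha-cell groups, in each library by group, with the mean and SD in black; axes do not start at 0. All 5 alpha Pdx1 points of Dnajb9 lie above all alpha points and all alpha Pdx1 DT points, and alpha DT is the highest alpha-cell group in the Chac1 and Derl3 panels.

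Whether the change with the toxin and RIP-DTR differed with and without Pdx1 was tested as an interaction, which none of the 38 genes passed in limma (0% of all genes did). RIP-DTR cannot be told apart from the toxin here. Glucagon-rtTA, TetO-Cre and the reporter transgene cannot be told apart from Pdx1, also in the comparison with alpha DT below. An unadjusted p under 0.05 was found for 2 of the 38 and 1527 of 16633 genes. For Dnajb9 the interaction was -1.15 ± 0.38, adjusted p = 0.411, for Chac1 -1.93 ± 0.72, adjusted p = 0.438 and for Pdia3 0.11 ± 0.28, adjusted p = 0.933. Of the sensors and outputs, the interaction was -0.06 ± 0.35 for Hspa5, -0.16 ± 0.28 for Xbp1, 0.13 ± 0.24 for Atf6, 0.07 ± 0.28 for Ern1, -0.08 ± 0.28 for Eif2ak3, 0.22 ± 0.30 for Atf4 and -0.74 ± 0.59 for Ddit3. The fall of Pdia3 with the toxin was -0.73 without Pdx1 and -0.62 with it, a pair of comparisons that share no library. Against alpha DT, none of the 38 genes passed in alpha Pdx1 DT in limma, where 2.1% of all genes did (1.78% higher and 0.319% lower). An unadjusted p under 0.05 was found there for 14 of the 38 and 2738 of 16633 genes. None of the 38 was free of overlap (1.15% of all genes upwards and 0.517% downwards). The difference was positive for 30 of the 38 and for 8278 of 16633 genes over all, with medians of 0.33 and -0.002. Hspa5 was at 0.60 ± 0.26, adjusted p = 0.232, Calr at 0.84 ± 0.25, adjusted p = 0.0629 and Ero1lb at 0.96 ± 0.40, adjusted p = 0.214. Without the 5 doubted libraries 7 rose and none fell, where 5.73% of all genes passed. None of the 7 leukocyte and 14 acinar genes was called with all libraries, with list means of 4.56 to 10.11 and 5.95 to 13.88 in alpha Pdx1 DT against 7.59 to 11.58 and 7.89 to 13.84 in alpha DT, and their part was not tested. The 7 risers were Ero1lb (1.24, adjusted p = 4.63e-05), Wfs1, Calr, Canx, Hspa5, Dnajc10 and Atf6. The library labelled alpha Pdx1 DT 5, which lacks the Pdx1 level of its group, is the one of the 5 that belongs to this comparison, and 4 of the 38 passed when it alone was left out. The count was 1 without alpha DT 1, 2 or 4. The share of all genes that passed ran from 0% to 5.73% over all alternatives. Xbp1 was at 0.21 ± 0.21, adjusted p = 0.661, Atf6 at 0.46 ± 0.18, adjusted p = 0.184, Atf4 at -0.24 ± 0.22, adjusted p = 0.629 and Ddit3 at -1.03 ± 0.44, adjusted p = 0.225. Ern1 was at 0.19 ± 0.21, adjusted p = 0.677 and Eif2ak3 at 0.20 ± 0.21, adjusted p = 0.658.

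Against untreated alpha, alpha Pdx1 DT showed 4 rises and no fall among the 38 genes (10.5%), where 4.06% of all genes were higher, 3.75% lower and 7.81% passed in either direction. These groups differ in Glucagon-rtTA, TetO-Cre, the reporter transgene and RIP-DTR as well as in Pdx1 and the toxin, which cannot be told apart. Syvn1, the ligase of ER-associated degradation, ranged from 11.36 to 12.67 (median 11.92) in alpha Pdx1 DT and from 10.43 to 11.49 (median 11.26) in alpha (0.83 ± 0.22, adjusted p = 0.0216). Derl2 ranged from 9.39 to 11.27 (median 10.86) in alpha Pdx1 DT (0.78 ± 0.25, adjusted p = 0.0477), Atf6 from 12.18 to 13.16 (median 12.79) (0.62 ± 0.15, adjusted p = 0.0152) and the disulfide reductase gene Dnajc10 from 10.96 to 12.42 (median 12.07) (0.59 ± 0.18, adjusted p = 0.0348). All 4 overlap with alpha, as do the other members (all alpha Pdx1 DT libraries were above alpha in 0.0661% and below it in 0.0902% of all genes), and in all 4 the lowest alpha Pdx1 DT value belongs to alpha Pdx1 DT 5. The highest value of Syvn1, Atf6 and Dnajc10 belongs to alpha Pdx1 DT 6, and that of Derl2 to alpha Pdx1 DT 3. Alpha Pdx1 DT 6 also had the highest leukocyte list mean of the group (10.11). It had the fewest different values below the first quartile of all libraries (32). Without the 5 doubted libraries 13 passed, 12 higher and 1 lower, where 20.3% of all genes passed. The additional rises were Ero1lb (1.48, adjusted p = 1.28e-07), Wfs1 (1.42, adjusted p = 2.41e-05), Derl3 (1.36, adjusted p = 0.0381), Hyou1, P4hb, Canx, Derl1 and Dnajc3, and Hsp90b1 fell (-0.53, adjusted p = 0.0167). Leaving out alpha Pdx1 DT 5 alone gave 10, and over all alternatives 0% to 21.2% of all genes passed. The count was 0 without alpha Pdx1 DT 4 or 6, 1 without alpha Pdx1 DT 1 and 2 without alpha Pdx1 DT 2 or 3 or alpha 3 or 4, and a fit of these 2 groups alone called none. It was 2 without the trend and robust steps and 12, all higher, with library weights, where 21.2% of all genes passed. Hspa5 was at 0.05 ± 0.22, adjusted p = 0.904 and Xbp1 at 0.18 ± 0.18, adjusted p = 0.54. Markers of other cells also moved here. All 7 leukocyte and macrophage genes had positive differences, 3 with an unadjusted p under 0.05 and none called (list means 4.56 to 10.11 against 4.24 to 7.75). Over all genes 4409 of 16633 had an unadjusted p under 0.05. Of 4 ductal genes 1 was called lower (5.66 to 6.94 against 6.05 to 8.20), of 6 alpha-cell markers 1 was lower, and of 6 beta-cell markers 2 were higher. None of the 14 acinar genes was called (5.95 to 13.88 against 6.31 to 12.67). Their part in the member differences was not tested. Ern1 was at -0.15 ± 0.17, adjusted p = 0.612, Eif2ak3 at -0.12 ± 0.18, adjusted p = 0.71, Atf4 at 0.01 ± 0.19, adjusted p = 0.984 and Ddit3 at -0.63 ± 0.37, adjusted p = 0.276.

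Cells with Pdx1 after the toxin were below beta-cells in most of these genes. In alpha Pdx1 DT (n = 6) against beta (n = 7) 29 of 38 genes were lower and 1 was higher, where 13.4% of all genes were lower, 12.9% higher and 26.3% passed in either direction. The median difference was -0.98, against -0.04 over all genes, and in 13 genes every alpha Pdx1 DT library lay below every beta library, as in 6.65% of all genes. None lay wholly above beta (5.74% of all genes). Ero1lb ranged from 12.35 to 14.25 (median 14.02) in alpha Pdx1 DT and from 15.57 to 17.92 (median 17.68) in beta (-3.33 ± 0.34, adjusted p = 1.2e-08). Wfs1 ranged from 9.67 to 11.88 (median 11.25) in alpha Pdx1 DT (-1.87 ± 0.32), and Sdf2l1 from 8.72 to 10.19 (median 9.47) (-1.90 ± 0.32). Dnajb11 was at -1.49 ± 0.21 and Hspa5 at -1.34 ± 0.22, adjusted p = 2.05e-05. In the degradation role Edem1 (-2.01 ± 0.27), Derl3 (-1.95 ± 0.43) and Sel1l (-1.37 ± 0.14) were farthest below beta, while Syvn1 (-0.24 ± 0.23, adjusted p = 0.476) and Os9 (-0.18 ± 0.26, adjusted p = 0.662) did not pass. Among the stress genes Chac1 (-2.06 ± 0.47), Asns (-1.60 ± 0.21) and Ddit3 (-1.26 ± 0.38, adjusted p = 0.0128) were lower than in beta. Trib3, at -2.82 ± 0.66, passed the filter only through beta and had to differ. Without it 28 of 37 members were lower and 1 was higher (median -0.91). The call of Ddit3 was lost without alpha Pdx1 DT 6, whose value of 5.95 is the lowest of that gene. By the rough guide to depth, that library had the fewest different values below the first quartile (32). Ppp1r15a was higher (1.15 ± 0.27, adjusted p = 0.00151), beside 9 of 9 dissociation-response genes that were also higher. Atf4 was at -0.02 ± 0.19, adjusted p = 0.961 and Ern1 at -0.13 ± 0.18, adjusted p = 0.66, while Atf6 (-0.58 ± 0.16, adjusted p = 0.00564) and Xbp1 (-0.70 ± 0.18, adjusted p = 0.00376) were lower and Eif2ak3 was at -0.56 ± 0.18, adjusted p = 0.0186. Without the 5 doubted libraries 28 genes passed, 27 lower and 1 higher, where 25.5% of all genes passed. Of 6 beta-cell markers all 6 were lower than in beta, and of 6 alpha-cell markers 5 were higher. Of other markers, the PP-cell gene Ppy, 1 of 3 delta-cell and 2 of 4 mesenchymal genes were higher. The plasma-cell gene Igj and 1 of 4 ductal genes were lower, and none of the 7 leukocyte, 14 acinar and 1 endothelial genes passed. The part of other cells in the member differences was not tested. The transgenes and the toxin differ between these groups along with the cell type, and cannot be told apart from it.

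The neighbouring lists were counted in the same way for alpha Pdx1 DT. Over all genes 9.22% passed against alpha Pdx1, 7.81% against alpha, 2.1% against alpha DT and 26.3% against beta. Against alpha Pdx1 the share of a list that passed ran from 6.9% to 21.1%, with other folding (12%) and N-glycosylation (10%) near the share of all genes. Against alpha it ran from 0% to 10%. Against beta it ran from 30.4% to 68%, with other degradation (30.4%) and other folding (32%) near it. Against alpha Pdx1, 4 of 25 translocation genes fell and none rose, among them the signal recognition particle gene Srp19 (-1.31 ± 0.29) and the signal peptidase gene Sec11c (-1.04 ± 0.24). Of 23 other degradation genes 3 rose and 1 fell, with the ubiquitin ligase gene Rnf5 at 1.28 ± 0.34 and the lectin gene Erlec1 at -0.76 ± 0.21. Of 25 other folding genes 2 rose, Selm (2.61 ± 0.58) and the prolyl isomerase gene Fkbp2 (1.94 ± 0.45), and 1 fell, the BiP exchange factor gene Sil1 (-0.72 ± 0.22). Other sensors and regulators rose in 1 and fell in 3 of 19 cases, ER exit genes in 1 and 2 of 22, and N-glycosylation genes and other ATF4 targets in 1 and 1 each. Against alpha, the calls were 2 rises in other folding, the same Selm (1.89 ± 0.51) and Fkbp2 (1.28 ± 0.40), 2 in N-glycosylation, 2 in ER exit and 2 among ATF4 targets, and 1 fall each in translocation and in other sensors and regulators. Against alpha DT the ATF4 target gene Sesn2 (1.04 ± 0.26, adjusted p = 0.031) was the one gene of these lists that passed. Against beta, 14 of 29 other ATF4 targets were lower and none higher, with Atf5 at -3.77 ± 0.48, and 16 of 25 translocation genes were lower and 1 higher, with Spcs3 at -1.50 ± 0.20 and Tram2 at 1.33 ± 0.40. N-glycosylation genes were lower in 9 and higher in 1 of 20 cases, ER exit genes in 9 and 2 of 22, other degradation genes in 7 and 0 of 23, other sensors and regulators in 6 and 3 of 19, and other folding genes in 5 and 3 of 25.

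Across the 5 groups, beta had the highest group mean in 30 of the 38 genes, alpha Pdx1 in 6, alpha and alpha DT in 1 each and alpha Pdx1 DT in none. Alpha DT had the lowest mean in 18 and alpha in 13. These orders hold for means and were not tested. The median SD of the 38 genes within a group was 0.37 in alpha, 0.52 in alpha DT, 0.31 in alpha Pdx1, 0.46 in alpha Pdx1 DT and 0.33 in beta. The 10 genes with the ER stress response element letters in the promoter window and the 24 with a window but without the letters can be set side by side. In beta against alpha 9 of the 10 rose and none fell, with a median of 1.19, and of the 24, 17 rose and 1 fell, with a median of 1.10. In alpha Pdx1 against alpha the medians were 0.44 and 0.39, with 2 of the 10 (Dnajc3 and Ero1lb) and 1 of the 24 (Dnajb9) past the test. In alpha DT against alpha they were -0.25 and 0.01. No test of the difference between carriers and the other genes was made.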

How the data were processed

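Bulk RNA-seq of FACS-sorted mouse islet cells was deposited as 1 table of 17775 genes in 30 libraries, 1 column per library, with no column outside these samples. Reads were aligned with GSNAP and GRCm38 was used as the genome, per the submitters' processing notes. The GSNAP version, annotation, counting rule and normalization are not given in the sources used here. Log2 values were deposited, with the same maximum and nearly the same quartiles in every library; no read counts are in the table, so the depth is unknown and intervals that need it are not given.

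The filter kept the 16633 genes that reached 5 in 4 or more libraries and removed 1142. limma 3.58.1 (R 4.3.3) with trend and robust empirical Bayes steps fitted 1 mean per group over all 30 libraries, and Benjamini-Hochberg adjustment ran over all genes of each comparison, with a threshold of 0.05 on the two-sided adjusted p. Values after ± beside a difference are standard errors of the fit. The scripts were tested on simulated data. Groups came from the labels, and library numbers are names in accession order that pair nothing. Per role and comparison the text gives up to 4 members past the threshold with the largest rise and up to 3 with the largest fall, in every comparison the sensors and outputs Hspa5, Xbp1, Atf6, Ern1, Eif2ak3, Atf4 and Ddit3, and, from the neighbouring lists, up to 2 genes per direction; other named members were chosen after their values were seen. The 38 members and all lists were chosen with earlier results of these data known. Promoter windows come from RefSeq (GRCm38.p6) with Ero1l and Ero1lb matched by synonym, and Hyou1, Manf, Derl1 and Atf6 had no entry. Tables and figures used Python 3.11.15, pandas 2.3.3, numpy 2.4.6 and matplotlib 3.10.9. Alternatives were another filter, no filter, an offset, no trend or robust step, library weights, centring, the groups of the contrast alone, leaving out 1 library and leaving out 5.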

Additional observations from a re-analysis of the deposited data

Results flagged for a closer look

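In 14 of the 190 combinations of a member and a group, 1 library lay far from the rest of its group by Dixon's test at 95%, which chance gives in about 1 in 20 groups. Values are given against the nearest other library of the group. In alpha Pdx1 DT 5, the library without its group's Pdx1 level, Ero1lb was 12.347 against 13.99, Derl2 9.393 against 10.67 and Hyou1 12.817 against 13.33, all on the low side. Alpha Pdx1 DT 6 is the library with the fewest different values below the first quartile (32). In alpha Pdx1 DT 6, Asns was 8.998 against 9.97 and Ppp1r15a 9.192 against 10.61, both low, and Derl1 was 12.229 against 10.98, high. In alpha 1, Hyou1 was 11.36 against 12.69 and Sdf2l1 7.6 against 8.93, both low, and Derl1 was 11.192 against 10.54, high. In alpha 8, the alpha library with Pdx1, Wfs1 was high (11.484 against 10.30).

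Single high values were Manf in alpha 7 (12.472 against 11.52), Ero1l in alpha DT 4 (12.326 against 11.62), Hsp90b1 in alpha Pdx1 4 (16.371 against 16.14) and Sel1l in alpha Pdx1 1 (12.032 against 11.43).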

How the results depend on the processing

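In beta against alpha and alpha Pdx1 DT against beta the number of members past the threshold stayed within 1.5 times its value under every alternative run. In alpha DT against alpha the 3 members became 0 in a fit of those groups alone. In alpha Pdx1 against alpha the 3 became 11 with library weights and 7 without the 5 doubted libraries. The 4 members of alpha Pdx1 DT against alpha Pdx1 became 7 with library weights. The 0 of alpha Pdx1 DT against alpha DT became 7 without the 5 libraries. The 4 of alpha Pdx1 DT against alpha became 0 in a fit of those groups alone, 2 without the trend and robust steps, 12 with library weights and 13 without the 5 libraries. The fits of the groups alone have fewer residual libraries; the cause of the other changes was not tested. Leaving out each library in turn gave 29 to 32 members in beta against alpha, 1 to 4 in alpha DT against alpha, 1 to 5 in alpha Pdx1 against alpha, 1 to 6 in alpha Pdx1 DT against alpha Pdx1, 0 to 4 against alpha DT, 0 to 10 against alpha, 26 to 30 against beta, and 0 for the interaction. Of 6642 fits of a member in a comparison under an alternative, 6429 kept their side of the threshold, 123 lost a call, 90 gained one and 0 reversed a call; among those that kept their side, 206 that passed in neither fit changed sign. Over all genes, the share called went with library weights from 34.5% to 56.4% (beta against alpha), 3.26% to 1.25% (alpha DT against alpha), 4.33% to 18.7% (alpha Pdx1 against alpha), and for alpha Pdx1 DT from 9.22% to 22.7% against alpha Pdx1, 2.1% to 0.192% against alpha DT, 7.81% to 21.2% against alpha and 26.3% to 41.4% against beta. In fits of the groups alone it was 0.397% for alpha DT against alpha, 5.43% for alpha Pdx1 DT against alpha Pdx1, and 0% against alpha DT and alpha alike. The interaction called 1 gene of 16633 with library weights, and no member. Without the 5 libraries the share of all genes called was 6.61% for alpha Pdx1 against alpha, 5.73% for alpha Pdx1 DT against alpha DT and 20.3% against alpha. Over all alternatives, leaving out 1 library included, it ran from 30.7% to 56.4% (beta against alpha), 0.397% to 6.48% (alpha DT against alpha), 1.81% to 18.7% (alpha Pdx1 against alpha), and for alpha Pdx1 DT from 3.38% to 22.7% against alpha Pdx1, 0% to 5.73% against alpha DT, 0% to 21.2% against alpha and 22.5% to 41.4% against beta, and from 0% to 0.018% for the interaction. No paired analysis was possible because the labels give no replicate numbers. The alternative without 5 libraries was chosen after seeing the data. Depth is unknown, and the low-level Trib3, Chac1 and Derl3 have the widest standard errors of the members in beta against alpha.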
